A study of Rattus norvegicus with 24 samples.

Results

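The phase II transferases examined here are the UDP-glucuronosyltransferases (Ugt), the cytosolic sulfotransferases (Sult) and the soluble glutathione S-transferases (Gst) of rat liver. They were taken by gene name from the annotation of the array: every name that opens with Ugt, Sult or a Gst class letter followed by a digit, together with ste2, which is annotated as an estrogen sulfotransferase. This gave 59 probes for 49 gene names, out of 30367 probes for 19958 names. Of the 59 probes, 17 belonged to Ugt genes, 16 to Sult genes and 26 to Gst genes, and 10 genes had 2 probes each.

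Liver RNA of male Wistar rats was compared between 3 diets, with 8 samples for each. All rats were fed a diet with 1% cholesterol for 42 days. The Ch group (CHOL in the sample labels) received this diet alone, the ChGENE group received it with 5% lyophilisate of the kiwifruit cultivar Geneva (Actinidia arguta), and the ChHAYW group with 5% lyophilisate of the cultivar Hayward (Actinidia deliciosa). No group without cholesterol was analysed here, so every comparison is between cholesterol-fed rats. No age of the rats was at hand. The question behind the comparisons was how each kiwifruit, added to the cholesterol diet, was accompanied by changes in liver transcripts.

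Phase II enzymes attach a water-soluble group to a steroid, bile acid, bilirubin, drug or reactive compound, so that it can be exported into bile or urine. Ugt enzymes sit in the endoplasmic reticulum and transfer glucuronic acid from UDP-glucuronic acid. Sult enzymes transfer a sulfonate group from the donor PAPS, and Gst enzymes join glutathione to electrophiles such as lipid peroxidation products. The liver is the main site of all 3 reactions, and several of the genes are known to respond to the receptors AhR, CAR and PXR and to the transcription factor Nrf2.

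Each sample was hybridised to its own 1-colour array. A level is the log2 intensity of a probe minus the 75th percentile of its array, so that 0 is the 75th percentile and 1 unit is a doubling, and levels of different probes are not comparable with each other. The 75th percentile, which is the brightness of an array, had a median intensity of 421 in the Ch samples (range 188 to 653), of 675 in the ChGENE samples (388 to 775) and of 731 in the ChHAYW samples (409 to 1049), and between 49.7% and 66.1% of probes were above background. The 8 arrays of each diet shared 1 slide, and the effects of diet and of slide cannot be told apart in any comparison. Hepatocyte markers (9 of 9 probes, among them albumin and transthyretin) were above background on all 24 arrays. Their summed level on the log2 scale had a median of 11.4 in Ch and of 10.9 in each kiwifruit diet, over a range of 10.9 to 11.9 without kiwifruit and of up to 11.5 with it. The marker list of Kupffer cells had a summed log2 level of 4.29 to 5.50 without kiwifruit, of 4.19 to 6.29 with Geneva and of 4.44 to 5.99 with Hayward, and that of lymphocytes -1.62 to -0.19, -1.39 to 1.25 and -0.94 to 1.00. None of the marker probes of any list passed the test in any comparison, and the part of cell composition in the results was not tested. In whole liver, fewer cells of a type and less RNA per cell cannot be told apart.

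In each diet, 1 pair of arrays was nearly the same. Over 7542 bright probes the SD of the log2 difference was 0.134 between ChHAYW 6 and 7, 0.144 between ChGENE 4 and 5, and 0.165 between Ch 1 and 2, whereas the next closest of the other 273 pairs of arrays had 0.317 and the median pair 0.498. On these 6 arrays, 2 spots of the same probe differed with an SD of 0.0827 to 0.0999. The closest pairs thus differed by more than spots of 1 array did, and by less than any other arrays. The labels call all 24 arrays biological replicates, and all were kept as separate samples. The p-values measure the spread between these samples. Since 2 such arrays might hold the same RNA, each call below is also given with the closest pair of each diet averaged as 1 sample (7 samples per diet). It is also given, for ChGENE, with both arrays 4 and 5 left out.

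**Figure D1:**
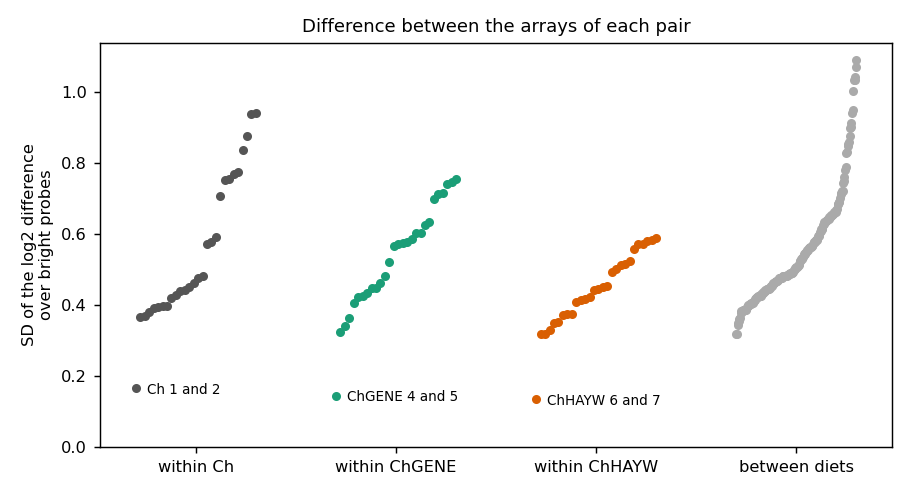
Each point is 1 pair of the 24 arrays. The y axis gives the SD of the log2 difference between the arrays over 7542 bright probes, and the x axis whether both arrays were of Ch, of ChGENE, of ChHAYW or of different diets. The named pairs, Ch 1 and 2 (0.165), ChGENE 4 and 5 (0.144) and ChHAYW 6 and 7 (0.134), lie below the remaining pairs, which start at 0.317.

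The probes are 60-base oligonucleotides. Some from genes described below are shown, because what a probe can tell apart depends on where it sits. The called probes of Ugt1a6, ste2 and Gstt3 are given by position only, and the sequences of Ugt1a6 and Gstt3 are those of their other probes. Positions are on the rn4 build that the array files use.
Ugt1a6, A_64_P025630, chr9:87097621-87097680, plus strand: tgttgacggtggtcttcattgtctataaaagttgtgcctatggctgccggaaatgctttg
Gstt3, A_64_P152447, chr20:13599504-13599563, minus strand: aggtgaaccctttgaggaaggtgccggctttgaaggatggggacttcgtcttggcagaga
Gsta3, A_64_P004231, chr9:20026897-20029435, plus strand: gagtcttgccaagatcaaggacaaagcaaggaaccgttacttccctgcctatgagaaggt
Sult2a1, A_44_P175204, chr1:75632843-75646550, minus strand: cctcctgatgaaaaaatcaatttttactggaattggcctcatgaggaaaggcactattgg
Gstm3, A_64_P025858, chr2:203532376-203532435, minus strand: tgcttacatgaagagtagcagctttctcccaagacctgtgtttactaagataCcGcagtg
Gstm3, A_64_P166081, same position: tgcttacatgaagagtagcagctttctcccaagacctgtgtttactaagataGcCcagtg
The Gsta3 probe covers 2539 bases of genome and the Sult2a1 probe 13708, so both cross an exon junction. The Gstm3 probes differ at the bases in capitals, C53G and G55C counted from the 5′ end of the probe, and lie on the same 60 genomic bases. They are 1 measurement made with 2 oligonucleotides, and their levels over the 24 arrays had a Pearson r of 0.98. The Ugt1a6 probes lie at bases 1609 and 2259 of the transcript. In the Ugt1 locus each isoform has a first exon of its own and shares the remaining exons with the others, so probes this far along the transcript do not tell Ugt1a6 from other isoforms of the locus. The single Ugt1a9 probe lies at base 544, on chr9:86987459-86987518.

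Of the 59 probes, 41 were above background on all 24 arrays and 13 on some of them. The probes of Ugt3a2, Sult1d1, Sult5a1, Sult6b1 and Gstt4 were above background on none, and no fold is given for these. For 32 of the 49 genes, at least 1 probe was above background on every array.

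Against Ch, 3 transferase probes were lower in ChGENE, 1 from each class, listed as Ugt1a6, ste2 and Gstt3. None was higher. A probe was called when its adjusted p was under 0.05 (limma with Benjamini-Hochberg adjustment over all 30367 probes) and its fold change at least 1.3. In this comparison 0.319% of all probes were called in either direction and 0.250% were called lower and 0.0692% higher. Of the 59 transferase probes, 3 were called.

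Ugt1a6 encodes the form known for conjugating small planar phenols. Neither of its probes tells it from other isoforms of the Ugt1 locus, so the levels below cannot be assigned to this form alone. At its probe A_64_P009265 (chr9:87098271-87098330) the lowest, median and highest levels were 7.27, 7.45 and 7.76 in Ch, 5.97, 6.71 and 7.19 in ChGENE, and 6.78, 6.92 and 7.32 in ChHAYW. All 8 ChGENE arrays were below all 8 Ch arrays, and ChHAYW lay between with overlap on both sides. ChGENE was 1.84-fold lower than Ch, a log2 difference of -0.88 (SE 0.17, adjusted p = 0.0448, limma). The other Ugt1a6 probe gave -0.81 (SE 0.23, adjusted p = 0.0608) with overlapping groups, and so did not pass the test.

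The gene ste2 encodes an estrogen sulfotransferase (A_64_P043976, chr14:21965266-21965325), which inactivates estrogens by sulfation. Its levels were 5.95, 6.27 and 6.95 in Ch (lowest, median, highest), 4.51, 5.37 and 5.87 in ChGENE, and 5.40, 5.93 and 6.69 in ChHAYW. Again no ChGENE array reached the lowest Ch array. The difference was -1.08 (SE 0.22, adjusted p = 0.0466, limma), or 2.11-fold lower. Groups that did not overlap, with ChGENE lower, were found at 0.642% of all probes and at 2 of the 59 transferase probes, those of Ugt1a6 and ste2 described here.

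Gstt3 encodes a theta class glutathione transferase, a class active on small halogenated compounds. At A_44_P1015203 (chr20:13596708-13596767) the levels were 3.46, 4.30 and 4.95 in Ch, 1.56, 2.68 and 3.55 in ChGENE, and 2.89, 3.97 and 4.73 in ChHAYW. Of the ChGENE arrays, 7 of 8 were below every Ch array. ChGENE was 3.11-fold lower (log2 -1.64, SE 0.34, adjusted p = 0.0481, limma), the largest decrease among the 59 probes. The other Gstt3 probe had a difference of -1.29 (SE 0.34, adjusted p = 0.0608), and r between the levels of both probes was 0.96 over the 24 arrays.

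These 3 calls were close to the threshold. With the closest arrays averaged, the differences were -0.76 for Ugt1a6, -0.90 for ste2 and -1.44 for Gstt3, each with an adjusted p of 0.0951, and 0 of all 30367 probes were called. With ChGENE 4 and 5 left out they were -0.67, -0.83 and -1.30, with adjusted p of 0.0795, 0.0949 and 0.0956. Over the other settings tried, the adjusted p ranged from 0.00874 to 0.321 for Ugt1a6, from 0.00971 to 0.222 for ste2 and from 0.0132 to 0.153 for Gstt3. Each gene kept its direction whichever 1 of the 16 arrays was left out. The call was kept in 4 of these 16 fits for Ugt1a6 and in 3 of 16 for ste2 and for Gstt3. Under each scaling of the arrays that was tried, all 3 stayed lower in ChGENE than in Ch.

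**Figure D2:**
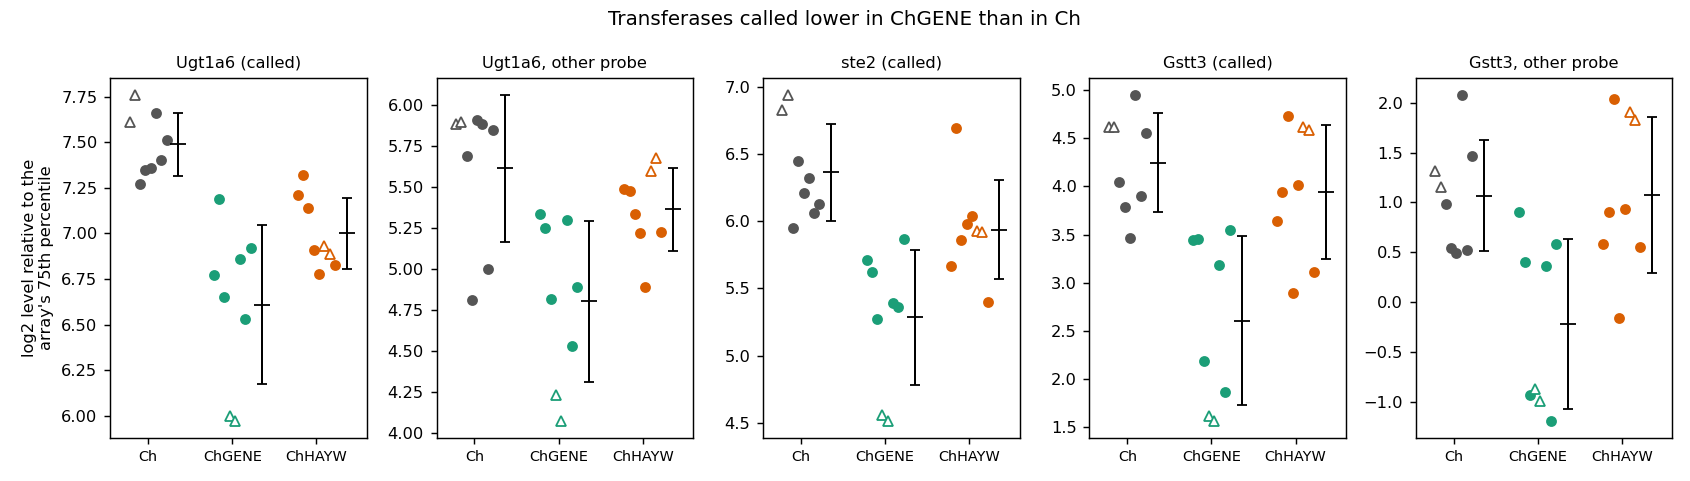
Levels on each array for the probes of Ugt1a6, ste2 and Gstt3, with the log2 level relative to the 75th percentile of the array on the y axis and the 3 diets on the x axis. Points are arrays in order of their number, open triangles the closest pair of each diet, and the bar at the right of each group is the mean with its SD (n = 8). The ChGENE mean lies below the Ch mean in all 5 panels under every scaling tried, without overlap in the panels of ste2 and of the called Ugt1a6 probe.

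Over the whole set, the mean in ChGENE was lower than in Ch at 50 of 59 probes, against 66.1% of all probes, and at 41 of 59 once ChGENE 4 and 5 were left out. At an unadjusted p under 0.05 with a fold of at least 1.3, 23 of 59 (39.0%) were lower and 2 higher, and among all probes 21.1% were lower and 3.47% higher. The median log2 difference was -0.40 for the transferases and -0.16 for all probes. Much of the shift in all probes lies in dim ones, since the median was -0.02 over the 16766 probes above background on every array of at least 1 of both diets. In a fit of these probes alone, with all arrays kept, 7.19% were lower and 5.23% higher at the unadjusted threshold. The transferases had 44 probes among them, of which 19 (43.2%) were lower and 1 higher. Scaling by spike-in controls moved the median of all probes to 0.30 and that of the transferases to 0.06, so that only 27 of 59 means were lower. With the closest arrays averaged 17 of 59 (28.8%) were lower at the unadjusted threshold, against 20.6% of all probes. Without ChGENE 4 and 5 it was 15 (25.4%) against 20.9%, and the median was -0.28, against -0.15 for all probes.

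**Figure D3:**
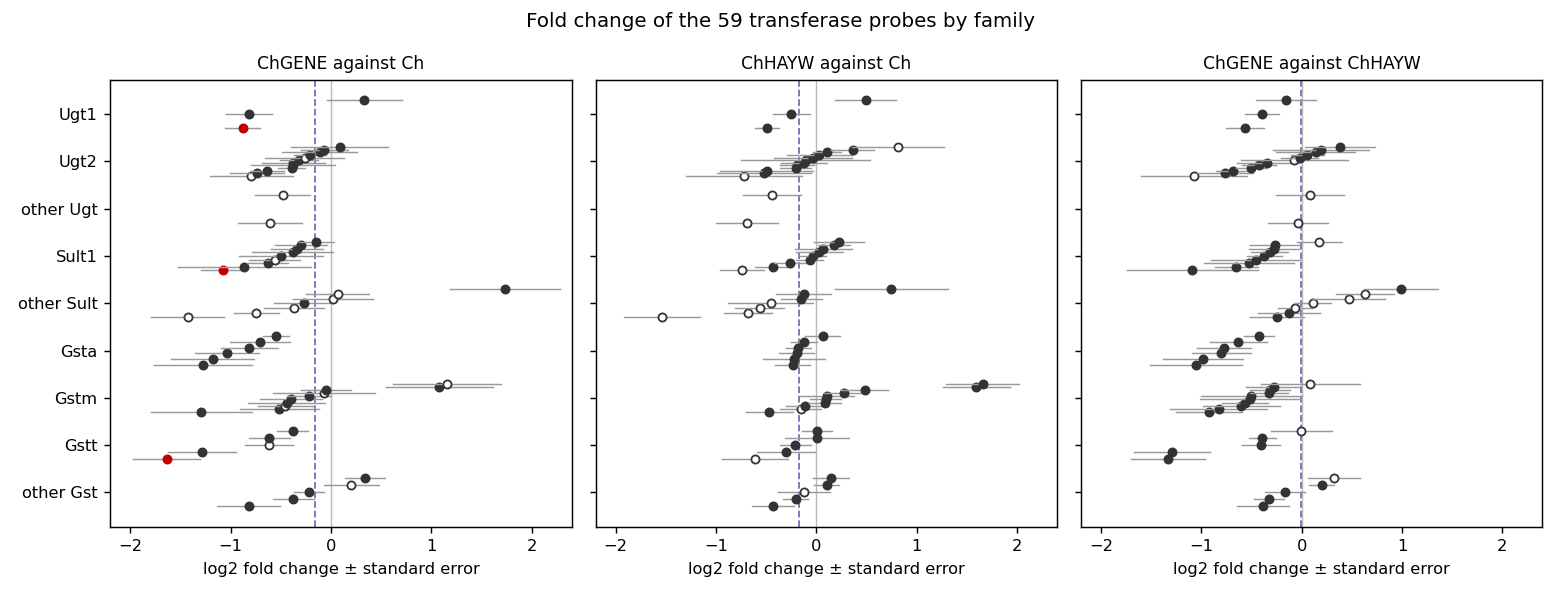
Log2 fold change (x axis, with its standard error) of the 59 probes, grouped by family on the y axis, for ChGENE against Ch, ChHAYW against Ch and ChGENE against ChHAYW. Red points are called, open points were not above background on all 8 arrays of either diet, and the dashed line is the median of all 30367 probes. The 6 Gsta probes lie left of 0 in both ChGENE panels, from -1.28 to -0.55 and from -1.05 to -0.43. Their differences stayed below 0 under every scaling tried, but the ranges changed. With spike-in scaling they were -0.81 to -0.087 and -1.24 to -0.62. In the middle panel the families scatter around the dashed line, and its position relative to 0 changes sign with spike-in scaling.

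Beyond Ugt1a6, none of the other 15 Ugt probes passed the test in ChGENE against Ch. The Ugt2 enzymes conjugate steroids, bile acids and many drugs. Of their 12 probes 11 had a lower mean in ChGENE, against 66.1% of all probes, with log2 differences between -0.79 and 0.09. With spike-in scaling 3 of 12 were lower. The probe listed as Ugt2b17 (A_64_P011301, chr14:22366563-22366622), whose accession RefSeq now names Ugt2b15, had levels of 6.98, 7.38 and 7.68 in Ch, 6.31, 6.59 and 7.13 in ChGENE, and 6.55, 7.15 and 7.54 in ChHAYW. Of the ChGENE arrays, 5 of 8 were below all Ch arrays, and the difference was -0.63 (SE 0.16, adjusted p = 0.0608). The probe listed as Ugt2b15, whose accession RefSeq now names Ugt2b35, had a difference of -0.32 (SE 0.19, adjusted p = 0.303). Ugt1a9 gave 0.33 (SE 0.37), or 0.68 without ChGENE 4 and 5, and the probes of Ugt2a1, Ugt2b7 and Ugt8 were above background on at most 2 of 8 arrays of any diet.

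Among the sulfotransferases the Sult1 family, which acts on phenols and estrogens, had lower means in ChGENE at 9 of 9 probes, against 66.1% of all probes. With spike-in scaling it was 5 of 9. The 9 include Sult1d1, which was above background on no array. The log2 differences ranged from -1.08 at ste2 to -0.14. Without ChGENE 4 and 5 only 4 of 9 means were lower, the differences then running from -0.83 to 0.21, with those of Sult1b1, Sult1c2 and Sult1c2a above 0. Sult2a1 was higher in ChGENE. It encodes a hydroxysteroid sulfotransferase that acts on bile acids and dehydroepiandrosterone, and its levels were 1.05, 3.09 and 5.48 in Ch, 3.95, 5.03 and 6.05 in ChGENE, and 2.73, 4.32 and 4.97 in ChHAYW. The SD within Ch was 1.52, the largest of the 59 probes in that diet, because Ch 3 and 5 reached 5.35 and 5.48 whereas Ch 6 was at 1.05. The difference of ChGENE from Ch was 1.74 (SE 0.54, adjusted p = 0.0608), with 3 of 8 ChGENE arrays above all Ch arrays. It was positive under every scaling tried, and 1.47 with an adjusted p of 0.136 once the closest arrays were averaged. Sult4a1, which is known mainly from brain, was above background on 2 Ch arrays and on none of the 16 kiwifruit arrays. Its name, like those of Sult1b1 and Sult1c2a here and of Gsta2, Gsta5, Sult1c2, Ugt2b, Ugt2a3 and Ugt2b37 in the following paragraphs, was chosen after the values were seen.

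The alpha class glutathione transferases (Gsta), which are abundant in hepatocytes and reduce lipid hydroperoxides, had lower means in ChGENE at 6 of 6 probes, though none was called. Of all probes 66.1% had a lower mean. The log2 differences ran from -0.55 at Gsta4 to -1.28 at A_64_P035291, the second Gsta3 probe. All 6 were lower at the unadjusted threshold, as were 21.1% of all probes, and the adjusted p ranged from 0.0608 to 0.139 (limma). All 6 means stayed lower under every scaling tried, but fewer passed the unadjusted threshold. With quantile normalization 3 of 6 did, against 5.22% of all probes, and with spike-in scaling 0 of 6, against 1.25%. At Gsta4, which conjugates the lipid peroxidation product 4-hydroxynonenal, the levels were 5.20, 5.42 and 5.54 in Ch, 4.45, 4.85 and 5.37 in ChGENE, and 4.71, 5.29 and 5.61 in ChHAYW. Here 7 of 8 ChGENE arrays were below every Ch array, and the difference was -0.55 (SE 0.13, adjusted p = 0.0608). At Gsta1 the levels were 7.29, 7.56 and 7.86 in Ch, 5.41, 7.05 and 7.58 in ChGENE and 7.07, 7.45 and 7.55 in ChHAYW, a difference of -0.81 (SE 0.29, adjusted p = 0.0824), or -0.38 without ChGENE 4 and 5 (adjusted p = 0.136).

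ChGENE 4 and 5 held the lowest levels of the alpha class. Both were below the other 6 ChGENE arrays at 6 of 6 Gsta probes, at 8 of 10 Gstm probes, at 33 of all 59 transferase probes (55.9%), and at 12.4% of all probes on the array. At Gsta2, for example, they were at 3.97 and 4.02, whereas the other ChGENE arrays lay between 5.93 and 6.85. Sult1c2 had the widest spread in ChGENE (SD 1.97), with -1.92 and -2.08 on these arrays and 0.87 to 2.85 on the others. Without them the Gsta differences were smaller, from -0.72 to -0.32, and 4 of 6 passed the unadjusted threshold, against 20.9% of all probes. Sult2a1 was highest on the same arrays, at 6.05 and 5.97. Over the transferases the median SD within ChGENE was 0.62, against 0.38 for all probes, whereas in Ch it was 0.52 against 0.53 and in ChHAYW 0.37 against 0.39.

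**Figure D4:**
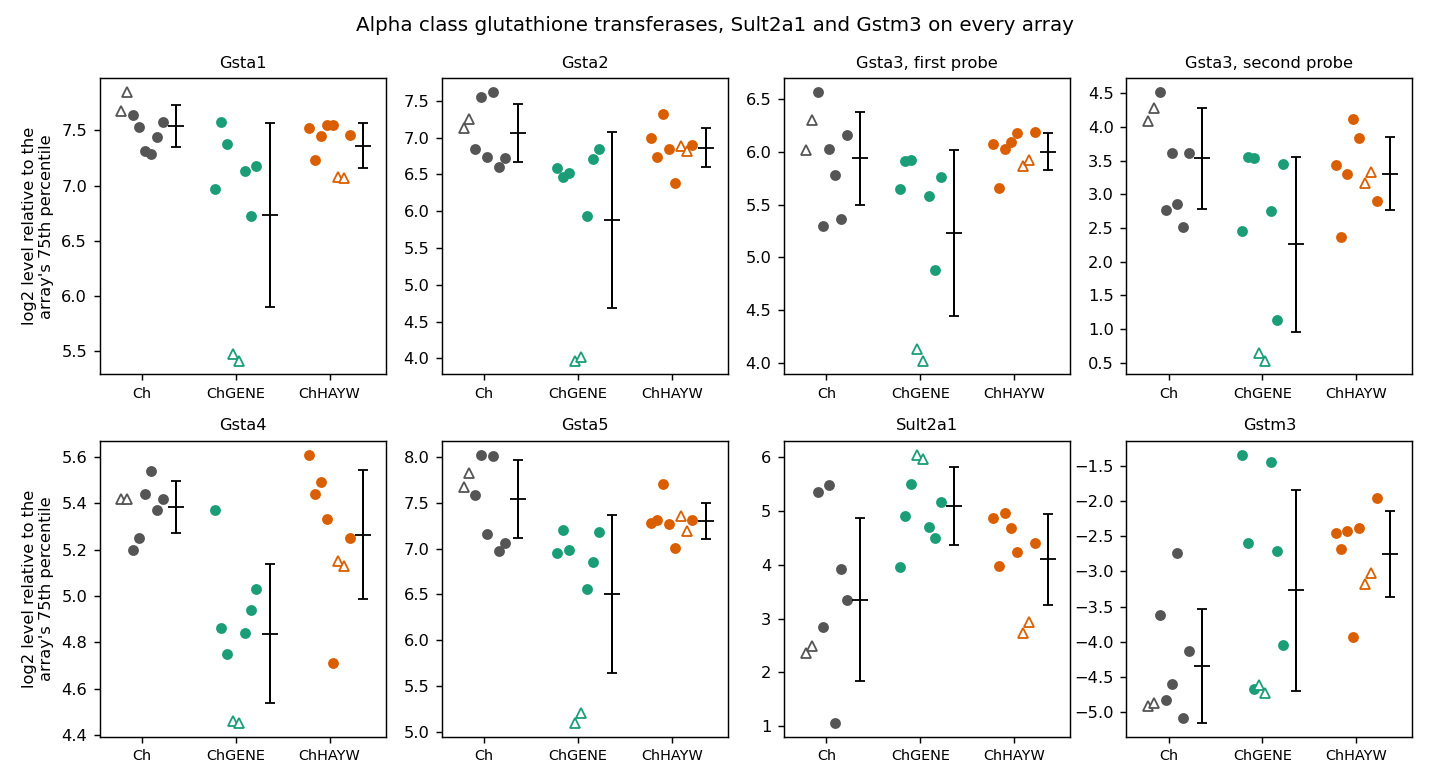
Levels on each array (log2, relative to the 75th percentile of the array) in the 3 diets for the 6 Gsta probes, Sult2a1 and the Gstm3 probe A_64_P025858. Open triangles are the closest pair of arrays of each diet, and the bar at the right of each group is the mean with its SD (n = 8). ChGENE 4 and 5 are the lowest ChGENE arrays in the 6 Gsta panels and the highest arrays in the Sult2a1 panel, and the means of ChGENE against Ch keep their direction in all 8 panels under every scaling tried.

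The mu class (Gstm) did not move as a block. In ChGENE against Ch 8 of 10 means were lower, against 66.1% of all probes, and 2 of 10 with spike-in scaling. The differences ranged from -1.29 to 1.16. Without ChGENE 4 and 5 only 3 of 10 were lower, over a range of -0.56 to 1.68. Gstm7 had levels of 1.15, 1.91 and 2.96 in Ch, -1.64, 1.19 and 2.16 in ChGENE and 0.92, 1.60 and 1.99 in ChHAYW, which gave -1.29 (SE 0.50, adjusted p = 0.110), or -0.56 without these arrays (adjusted p = 0.252). Of the theta class, Gstt2 differed by -0.61 (SE 0.20, adjusted p = 0.0675), with levels of 2.44, 3.06 and 3.50 in Ch, 1.69, 2.61 and 2.92 in ChGENE and 2.27, 2.91 and 3.15 in ChHAYW. Its groups overlapped, with 3 of 8 ChGENE arrays below all Ch arrays, and without ChGENE 4 and 5 the difference was -0.38 (adjusted p = 0.173). Gstz1, which also takes part in tyrosine breakdown, gave -0.82 (SE 0.31, adjusted p = 0.107), or -0.43 without them (adjusted p = 0.305), and Gsto1, of the omega class, -0.22 (SE 0.15, adjusted p = 0.36).

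In ChHAYW against Ch no transferase probe was called, nor was any of the 30367 probes (0%). Groups without overlap were found at none of the 59 and at 0.0593% of all probes. The mean was lower in ChHAYW at 37 of 59, against 66.6% of all probes. At the unadjusted threshold 7 of 59 (11.9%) were lower and 2 higher, and among all probes 19.7% were lower and 3.05% higher. Of the 47 transferase probes above background on every array of at least 1 of both diets, 3 (6.38%) were lower and 2 higher. Of all such probes 6.82% were lower and 4.85% higher. The median difference was -0.12 over the 59 probes, against -0.18 for all probes. With spike-in scaling both turned positive, to 0.53 and 0.47, and 5 of 59 means were lower. Both higher probes were those of Gstm3, a mu class enzyme. At A_64_P025858 the lowest, median and highest levels were -5.09, -4.72 and -2.74 in Ch, -4.73, -3.37 and -1.34 in ChGENE, and -3.93, -2.56 and -1.96 in ChHAYW. It was above background on 3 of 8 Ch arrays and on all 16 kiwifruit arrays, and 5 of 8 ChHAYW arrays lay above all Ch arrays. The log2 difference of ChHAYW from Ch was 1.59 (SE 0.34) at this probe and 1.66 (SE 0.37) at the other, with an adjusted p of 0.110 at each. ChGENE differed from Ch by 1.08 (SE 0.53, adjusted p = 0.201) at the first probe, with ChGENE arrays spread over the ranges of both other diets. These directions held under every scaling tried. The Ugt1a6 probe called in ChGENE differed by -0.49 in ChHAYW (SE 0.12, adjusted p = 0.110), with 7 of 8 ChHAYW arrays below all Ch arrays, but by 0.16 with spike-in scaling. The Gsta probes gave -0.24 to 0.06, and with spike-in scaling 0 of 6 were lower.

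The direct comparison of both kiwifruit diets asks whether ChGENE differed from ChHAYW. No transferase probe was called, and of all probes 0.00659% were. The mean was lower in ChGENE at 46 of 59 probes, against 50.9% of all probes, and at 37 of 59 without ChGENE 4 and 5. None of the 59 probes had groups without overlap. Short of that threshold, 18 of 59 (30.5%) were lower in ChGENE at an unadjusted p under 0.05 with a fold of at least 1.3, and 2 were higher, against 2.85% and 3.09% of all probes. The median difference of the transferases was -0.34, while that of all probes was -0.01. With the closest arrays averaged 11 of 59 (18.6%) were lower, against 2.12% of all probes, and without ChGENE 4 and 5 it was 9 (15.3%) against 2.95%, with a median of -0.10. By class 11 of 26 Gst, 6 of 17 Ugt and 1 of 16 Sult probes were among the 18. The members share their RNA samples and partly their sequence, so these counts are not independent observations.

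At the Gstt3 probe A_44_P1015203 the difference of ChGENE from ChHAYW was -1.33 (SE 0.37, adjusted p = 0.265), which did not pass the test, with 4 of 8 ChGENE arrays below all ChHAYW arrays. The smallest adjusted p of the set was that of the probe listed as Ugt2b15 (A_44_P236068, chr14:22478931-22480029). Its levels were 4.39, 5.27 and 5.76 in Ch, 4.69, 4.85 and 5.48 in ChGENE, and 4.85, 5.73 and 6.00 in ChHAYW, a difference of ChGENE from ChHAYW of -0.68 (SE 0.18, adjusted p = 0.232). Gstm1, a mu class enzyme, had levels of 3.04, 4.81 and 5.69 in ChGENE and 5.11, 5.54 and 5.71 in ChHAYW, with 6 of 8 ChGENE arrays below all ChHAYW arrays and a difference of -0.92 (SE 0.33, adjusted p = 0.453). Without ChGENE 4 and 5 it was -0.43 (adjusted p = 0.498). At the Gsta probes the differences ran from -1.05 to -0.43, with 6 of 6 lower at the unadjusted threshold, against 2.85% of all probes. Without these arrays they ran from -0.49 to -0.20, with 1 of 6 lower, against 2.95% of all probes. The called probes of Ugt1a6 and ste2 differed between ChGENE and ChHAYW by -0.39 (SE 0.17, adjusted p = 0.561) and -0.65 (SE 0.21, adjusted p = 0.401), and without ChGENE 4 and 5 by -0.18 and -0.40 (adjusted p = 0.745 and 0.550). Their lower level in ChGENE against Ch is therefore not shown to be particular to the Geneva cultivar. Both of these comparisons share the ChGENE arrays.

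At some probes of Ugt2b, Ugt2a3 and Ugt2b37 the same 6 arrays stood apart, some of Ch and some of ChHAYW, with no ChGENE array among them. At the Ugt2b probe A_44_P437096 (chr14:22179488-22179547) Ch 1, 2 and 6 and ChHAYW 2, 6 and 7 had levels between -2.14 and -1.85, and the other 18 arrays between -0.66 and 1.16. The same 6 arrays were the 6 lowest at the Ugt2a3 probe A_64_P045325 (chr14:22116709-22116772), with 1.20 to 1.87 against 2.25 to 4.23. They were the 6 highest at the Ugt2b37 probe A_43_P15965 (chr14:22422764-22422822), with 3.53 to 3.95 against 1.50 to 2.75. Of all 30367 probes, 5 had these 6 arrays as their lowest and 1 as their highest. Besides the 3 named, these were 2 probes of chromosome 14 at 22155438 and 22231975 with no gene name beyond an accession or probe number, and Akr1c2 on chromosome 17, an aldo-keto reductase. The 6 arrays were picked at the Ugt2b probe itself, and of the other 5 probes, 4 lie on chromosome 14. The second probes of the same genes followed less closely. Of the 6 arrays, 5 were among the 6 lowest at the other Ugt2b probe, 4 at the other Ugt2a3 probe, and 3 among the 6 highest at the other Ugt2b37 probe. At the probes of Ugt2a1, Ugt2b1, Ugt2b10, Ugt2b15, Ugt2b17 and Ugt2b7 only 0 to 2 of them were among the 6 lowest, whereas at Sult2a1, on chromosome 1, it was 5 of 6. Ch 1 and 2 and ChHAYW 6 and 7 are the nearly identical pairs described above, so the 6 arrays may not be 6 separate samples.

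**Figure D5:**
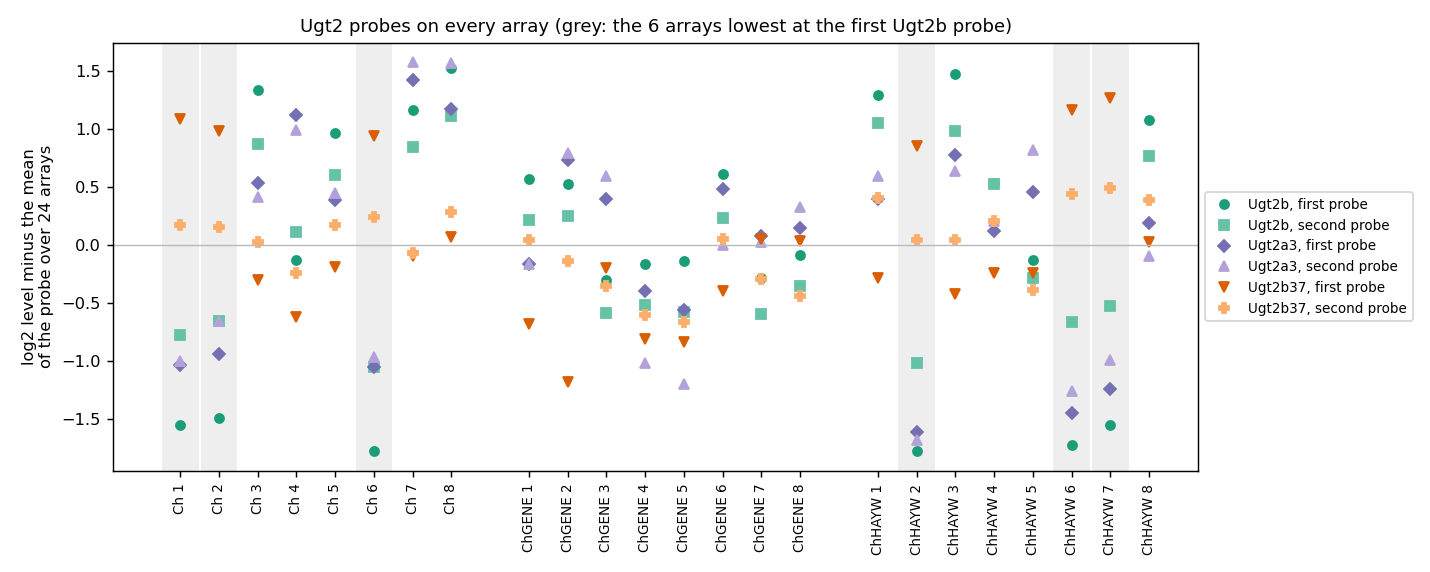
Log2 level of 6 Ugt2 probes on each of the 24 arrays (x axis), with the mean of each probe over the 24 arrays subtracted (y axis). The grey columns are Ch 1, 2 and 6 and ChHAYW 2, 6 and 7, the 6 lowest arrays at the first Ugt2b probe, where they lie between -2.14 and -1.85 before subtraction. They are also the lowest at the first Ugt2a3 probe and the highest at the first Ugt2b37 probe, and no ChGENE array is among them.

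The genes that work with the transferases were read from a list of 50 genes (64 probes) that supply the donors, carry out other conjugations, cleave or export conjugates, or control these genes. None was called in any of the 3 comparisons. At the unadjusted threshold 12 of 64 were lower and 3 higher in ChGENE against Ch (18.8% lower, against 21.1% of all probes, and 3.47% higher among all probes). In ChHAYW against Ch 7 were lower and 4 higher (10.9% lower, against 19.7% of all probes, and 3.05% higher among all probes). In ChGENE against ChHAYW 8 were lower and 3 higher (12.5% lower, against 2.85% of all probes, and 3.09% higher among all probes). Without ChGENE 4 and 5 the counts were 6 lower and 7 higher against Ch, and among all probes 20.9% were lower and 2.46% higher. Against ChHAYW they were 10 lower and 4 higher, and among all probes 2.95% were lower and 3.38% higher. Slc35d1, which carries UDP-glucuronic acid into the endoplasmic reticulum, gave -0.68 in ChGENE (SE 0.16, adjusted p = 0.0608) and -0.59 in ChHAYW (SE 0.16, adjusted p = 0.110) at A_64_P012328. Ugp2, which makes UDP-glucose, stayed between -0.59 and -0.40 in ChGENE against Ch with 1 array left out. Between ChGENE and ChHAYW, a comparison that the naming rule for partner genes did not use, it differed by -0.82 (SE 0.18, adjusted p = 0.154). Of the sulfate donor enzymes, Papss1 gave -0.87 (SE 0.31, adjusted p = 0.0860) and Papss2 -0.23 (SE 0.14, adjusted p = 0.303) in ChGENE against Ch. Glyat, a glycine conjugating enzyme of mitochondria, and Baat, which conjugates bile acids, gave -0.71 (SE 0.18) and -0.49 (SE 0.15), both with an adjusted p of 0.0608. The exporter Abcc5 and the lysosomal sulfatase Arsa were on the higher side, with 0.69 (SE 0.26, adjusted p = 0.0937) and, at A_64_P000650, 0.41 (SE 0.15, adjusted p = 0.0824). In ChHAYW against Ch the canalicular exporter Abcc2 gave 0.49 (SE 0.18, adjusted p = 0.114).

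The partner list held 14 probes of transcription factors. At the unadjusted threshold 1 of them was lower and 0 higher in ChGENE against Ch (7.14% lower, against 21.1% of all probes). Their median difference was -0.14, against -0.16 for all probes. With 1 array left out, Ppara stayed between 0.26 and 0.41 in ChGENE and between 0.45 and 0.67 in ChHAYW, each against Ch. Rxra stayed between -0.87 and -0.56 in ChHAYW against Ch. Nr1i3 encodes CAR, a receptor that controls many phase II genes. Its levels at A_64_P109496 were 0.51, 0.98 and 1.76 in Ch, -0.48, 0.41 and 1.23 in ChGENE, and 0.83, 1.47 and 1.75 in ChHAYW. The differences of ChGENE were -0.70 from Ch (SE 0.25, adjusted p = 0.0792, or -0.45 and 0.226 without ChGENE 4 and 5) and -0.98 from ChHAYW (SE 0.23, adjusted p = 0.213). For glutathione synthesis, the catalytic subunit gene Gclc gave -0.55 in ChGENE against Ch (SE 0.30, adjusted p = 0.251), or -0.14 without these arrays (adjusted p = 0.725). The modifier subunit gene Gclm, named after its values were seen, was the only partner probe whose groups did not overlap between ChGENE and ChHAYW, where 0.0922% of all probes did not overlap. Its levels were -5.46, -3.81 and -3.35 in ChGENE and -3.08, -2.70 and -1.55 in ChHAYW, and the difference was -1.57 (SE 0.31, adjusted p = 0.106), or -1.30 with the closest arrays averaged (adjusted p = 0.390). It was above background on 6 of 8 ChGENE arrays and on all 8 of ChHAYW.

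The start of Ugt1a6 is shown because the gene is a known target of AhR, whose binding core is GCGTG. The called probe does not tell from which first exon of the Ugt1 locus its transcripts began. The starts of ste2 and Gstt3 are not shown. The 250 bases before its start in RefSeq (GRCr8, chr9:96194768-96195017, plus strand) hold this core once, in capitals, 133 bases before the start.
Ugt1a6: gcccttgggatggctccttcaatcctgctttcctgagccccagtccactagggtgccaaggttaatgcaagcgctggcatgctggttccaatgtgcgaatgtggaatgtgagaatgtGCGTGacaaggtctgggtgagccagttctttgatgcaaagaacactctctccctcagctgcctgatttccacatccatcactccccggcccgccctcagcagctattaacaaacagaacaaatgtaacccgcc
Windows of 300 bases (250 before to 50 after the start) were at hand for 43 of the 49 genes, as 45 promoters. On either strand GCGTG was found in 9 of these 45 and in 29.7% of 33469 promoters of all genes. The core of the Nrf2 response element, TGACNNNGC, was found in 7 of 45 (15.6%) and in 12.1% of all. Neither core was found in the window of Gstt3. A match is a description of letters, not of binding.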

How the data were processed

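Per the file headers the arrays were scanned and extracted with Agilent Feature Extraction 10.10.1.1. The deposited intensity values are background-subtracted, spatially detrended and not scaled between arrays, and the authors' own value table held the same values (0 of 1511424 spots differed). The scaling used in GeneSpring was not stated. The labels name a miRNA labelling kit, whereas the study's methods name the 1-colour gene expression kit.

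Spots of a probe were averaged after controls and outlier spots were left out, log2 values were reduced by the 75th percentile of each array, and each pair of diets was fitted on its 16 arrays with limma 3.58.1 (R 4.3.3), Benjamini-Hochberg adjusted over 30367 probes. A probe was above background on an array when a share of at least 0.5 of its spots was marked so. The fit was also run on simulated arrays with known changes and independent noise. These held no slide effect and no nearly identical arrays, so they say nothing on how reliable the calls here are. No covariate entered, since each diet had 1 slide, and precision is limited by the number of arrays. Named probes were those called, the one of smallest p per family and comparison, the other probes of those genes, and 2 per role among the partner genes. The members, lists and tests were chosen with earlier results of these data known. Accessions of 50 of the 59 probes matched RefSeq symbols. Alternatives covered background correction, scaling, dim probes, the test, the samples and the replicate block.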

Additional observations from a re-analysis of the deposited data

Results flagged for a closer look

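A single array stood apart from the other 7 of its diet at 4 of 126 groups of values examined (42 named probes in 3 diets). For independent groups chance alone would give about 1 in 20, or 6.3. The groups share arrays, however, and the rule cannot flag a pair of arrays that stand apart together, such as ChGENE 4 and 5. No conclusion on deviant arrays is drawn from the count. Gsto1 (A_44_P1025790) was at 3.95 on ChGENE 1, while the other ChGENE arrays lay between 2.97 and 3.31. Papss1 was at 0.05 on ChGENE 2, against -1.51 to -0.84 on the others. Ppara, a fatty acid receptor of the partner list, was at -0.92 on ChHAYW 5, against -0.05 to 0.34. Gss, which makes glutathione, was at 2.30 on ChHAYW 8, against 1.65 to 1.89.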

How the results depend on the processing

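The count of transferase probes called in ChGENE against Ch, 3 in the main setting, was 15 with all 24 arrays in 1 fit, 17 with array weights, 13 with median scaling and 23 with normexp background correction. It was 0 with quantile normalization, with spike-in scaling, with the closest arrays averaged and with ChGENE 4 and 5 left out (the latter settings were both chosen after seeing the data), and 2 to 4 in the remaining settings without a block. With the replicate number as a block it was 1. The numbers are not stated to pair the samples: same-numbered ChGENE and Ch arrays had correlations of -0.20 to 0.21, and no array correlated best with its own number. In ChHAYW against Ch the main count of 0 became 8 with array weights, 6 with median scaling and 11 with normexp. For the partner genes the count of 0 became, in ChGENE against Ch, 6 with all arrays in 1 fit, 1 with the filter on dim probes, 11 with array weights, 5 with median scaling and 15 with normexp. In ChHAYW against Ch it became 8, 3 and 10 with array weights, median scaling and normexp, and in ChGENE against ChHAYW 1 with array weights. With spike-in scaling the transferase medians were 0.064 (ChGENE against Ch) and 0.53 (ChHAYW against Ch). The causes were not tested.

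With 1 array left out, transferase calls ranged from 0 to 14 in ChGENE against Ch, from 0 to 9 in ChHAYW against Ch, and stayed at 0 in ChGENE against ChHAYW. In the first comparison they were 0 without any of Ch 1, 2, 6, 7 or 8 or ChGENE 1, 3, 4, 5, 6, 7 or 8, 1 without Ch 4, 14 without Ch 3 and 13 without ChGENE 2. Medians ranged from -0.51 to -0.35, from -0.17 to -0.08 and from -0.43 to -0.24, and partner calls from 0 to 7, from 0 to 5 and at 0. Among single probes, Gstt3 A_64_P152447 ranged from -0.13 to 0.18 and Gsta3 A_64_P004231 from -0.029 to 0.15 in ChHAYW against Ch.

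Directions turned for single probes as follows (log2). In ChGENE against Ch, Gstm1 was 0.052 without ChGENE 4 and 5, and with spike-in scaling Ugt2b15 was 0.14, Gstm1 0.020, Gsto1 0.24, Papss2 0.23, Chac1 0.041 and Abcc4 0.028. In ChHAYW against Ch, Gstt3 A_64_P152447 was -0.086 with the closest arrays averaged and -0.19 with array weights, Gsta3 A_64_P004231 -0.069 with array weights, and Nat2 -0.16 with normexp. Quantile normalization gave Ugt2b17 0.067, Gsta4 0.019 and Gsta1 0.12. Spike-in scaling gave 0.16 and 0.40 for Ugt1a6, 0.22 for ste2, 0.35 for Gstt3 A_44_P1015203, 0.44 for Ugt2b17, 0.53 for Gsta4, 0.18 for Gstm7, 0.22 for Gstz1, 0.47 for Gsta1, 0.44 for Gstt2, 0.42 for Gsta3 A_64_P035291, 0.061 for Slc35d1, 0.22 for Chac1, 0.39 for Slc35b2, 0.16 for Mgst3, 0.52 for Gusb and 0.31 for Abcc1. In ChGENE against ChHAYW without ChGENE 4 and 5, Gstz1 was 0.0001 and Gstm3 A_64_P166081 0.020. Of the other results for named probes under these settings, 1037 kept direction and side of the threshold, 72 passed it and 14 no longer did. Dim probes, near background on part of the arrays, limit what can be said of Gstm3 and Gclm.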

Other observations

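Sult1c2 and Sult1c2a, neighbouring genes on chromosome 9, were both low on ChGENE 4 and 5. The Sult1c2a probe A_44_P141963 was at 0.58 and 0.50 there, while the other ChGENE arrays lay between 2.69 and 3.58. Sult1b1, on chromosome 14, was at 5.16 and 5.09 on these arrays at A_43_P12233, against 6.21 to 6.88 on the other ChGENE arrays. These genes were named after their values were seen. Gstp1, the pi class enzyme, had the narrowest spread of the 59 probes in ChHAYW (SD 0.09), with levels of 0.09 to 0.35 there, 0.11 to 0.95 in ChGENE and -0.64 to 0.61 in Ch.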
